A study of Mus musculus with 6 samples.

Results

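Heat production in fat by proton leak and by ion cycling was followed through 8 genes in the iWAT transcriptome of cold-acclimated mice. The genes were taken by symbol for their role in these routes, with earlier results of these data known, and all 8 were present among the 16538 genes in the table. They are Ucp1 with its paralogs Ucp2 and Ucp3, the ADP/ATP carriers Slc25a4 and Slc25a5, the secreted enzyme gene Pm20d1, the calcium pump gene Atp2a2 and the calcium channel gene Ryr2.

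RNA-Seq was done on the inguinal fat pad (iWAT), a subcutaneous white depot of the mouse in which beige adipocytes appear in the cold, to ask how loss of the secreted factor NRG4 from adipocytes alters its gene expression. The AKO group lacked Nrg4 through a Cre recombinase driven by the Adiponectin promoter, which acts in adipocytes of all fat depots and spares the other cells of the tissue. The control group, labelled wt, consisted of fl/fl mice without Cre, and both groups had been kept at 8°C for 10 days by their labels, with a slightly longer period in the study's text. Each group had 3 samples, each made of RNA pooled from 2 mice, and age and sex were not given in the sources used here, so that spread between samples is spread between pools.

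Brown and beige adipocytes make heat when UCP1, a carrier of the inner mitochondrial membrane activated by fatty acids, lets protons return to the matrix without making ATP. Adipocytes without UCP1 can still spend energy by other routes: the ADP/ATP carriers leak protons while they exchange ADP for ATP, N-acyl amino acids made by PM20D1 increase respiration, and the pump SERCA2b can return calcium to the endoplasmic reticulum that ryanodine receptors have released, at the cost of ATP. UCP2 and UCP3 share their fold with UCP1 but are not thought to carry the main heat-producing leak of fat.

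The libraries were of similar depth, with 17570335 to 18373707 reads on the listed genes. Nrg4 was measured at 3128, 3102 and 3092 normalized counts in controls and 2577, 2627 and 2691 in AKO samples, a difference of -15.3% without overlap of the groups (limma adjusted p = 0.298). Reads were counted per gene, and the exons they came from were not examined, so this value checks the labels only in part. In the annotation, 8.97% of the exon bases of Nrg4 are shared with Fbxo22 and Gm15625 on the opposite strand. By quantitative PCR, the paper found almost no Nrg4 mRNA in iWAT of AKO mice. The 10 white adipocyte genes summed to 478094 to 526102 normalized counts in controls and 423869 to 483093 in AKO samples. The 17 skeletal muscle genes varied most among the marker lists, at 777, 25115 and 14740 in controls and 18637, 69864 and 106766 in AKO samples. The 2 samples with the highest sums of lymphocyte genes were control 1 (1629) and AKO 2 (2098), against 502 to 674 in the other samples, and results were also computed without this pair. The sums of 5 progenitor genes were 8286 to 11657 in controls and 10953 to 15220 in AKO samples. All 5 had log2 fold changes above 0 (median 0.36), and DESeq2 called 1 of them higher (0.241% of all genes in this direction). Of the 5, 3 had an unadjusted limma p under 0.05 (4.41% of all tested genes in this direction) and 3 had groups without overlap (6.14%). The ranges of their sums overlapped, as did those of the endothelial (16646 to 17901 against 15373 to 17611), smooth muscle (4706 to 6054 against 4517 to 7561) and epithelial genes (8.60 to 761 against 91.2 to 1130).

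Ucp1 stood out among the 8 genes, with a difference of -70.1% in mean normalized counts from control to AKO iWAT. Ucp3, Pm20d1 and Atp2a2 were lower, with differences of -24.0%, -20.6% and -10.6%, also without overlap of the groups. Ucp2, Slc25a4, Slc25a5 and Ryr2 overlapped between genotypes. Normalized counts are the authors' read counts divided by a size factor for the depth of each sample, and 7 genes with a mean of at least 10 were tested with limma on log2(normalized count + 1), a scale that slightly understates changes of genes with few reads. No member passed an adjusted p of 0.05 across all 13855 genes tested with limma, where 0.0144% of genes passed. DESeq2 on the recovered reads called 1 member, Ucp1, against 0.998% of 14923 genes, and edgeR called 0 members, against 0.0216% of its genes. At an unadjusted limma p under 0.05, 4 of the 7 tested members were lower in AKO (4.69% of all tested genes). The same 4 genes had non-overlapping groups, which in this direction held for 8.31% of tested genes. The fitted log2 fold change was below 0 for 6 of the 7 genes and for 48.1% of all tested genes, with medians of -0.16 and 0.007.

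**Figure D1:**
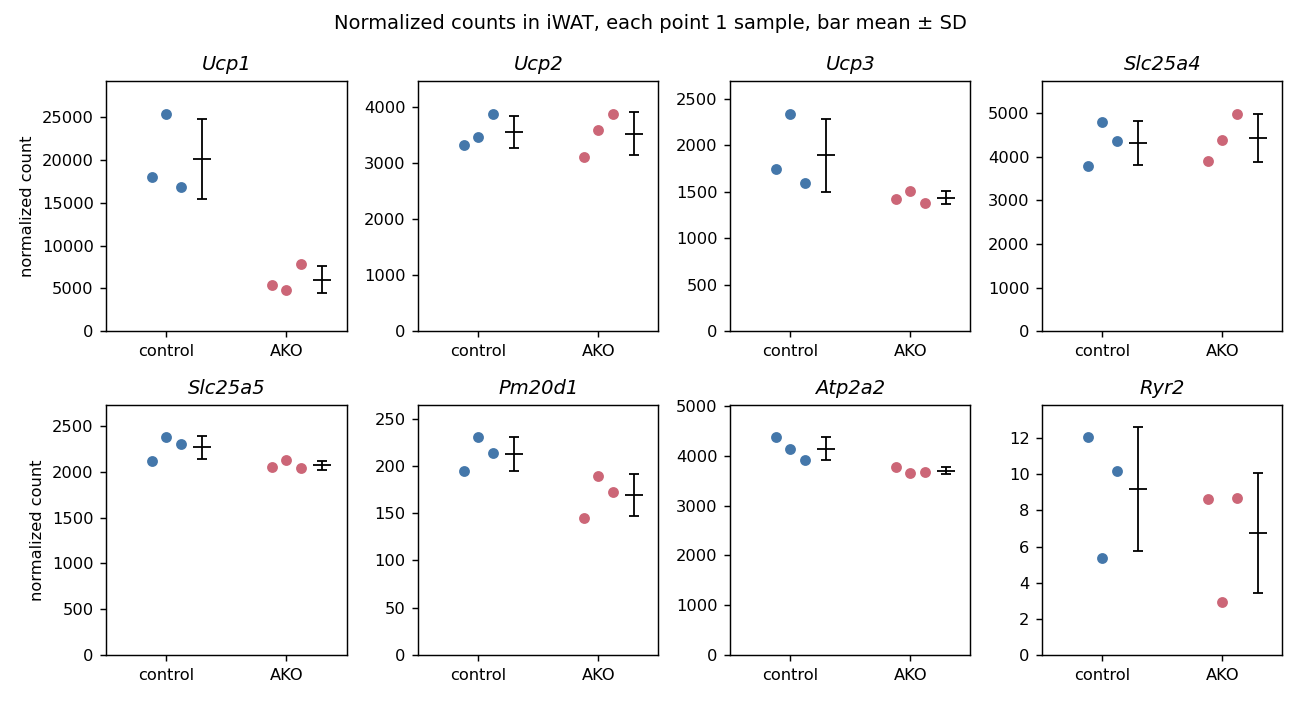
Normalized counts of the 8 genes in iWAT (y axis, from 0, with its own scale in each panel) in 3 control and 3 AKO samples, each point 1 sample of RNA pooled from 2 mice, with the mean ± SD beside them. Ucp1 lies between 16827 and 25393 in controls and between 4836 and 7801 in AKO samples, while the points of Ucp2, Slc25a4, Slc25a5 and Ryr2 overlap.

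**Figure D2:**
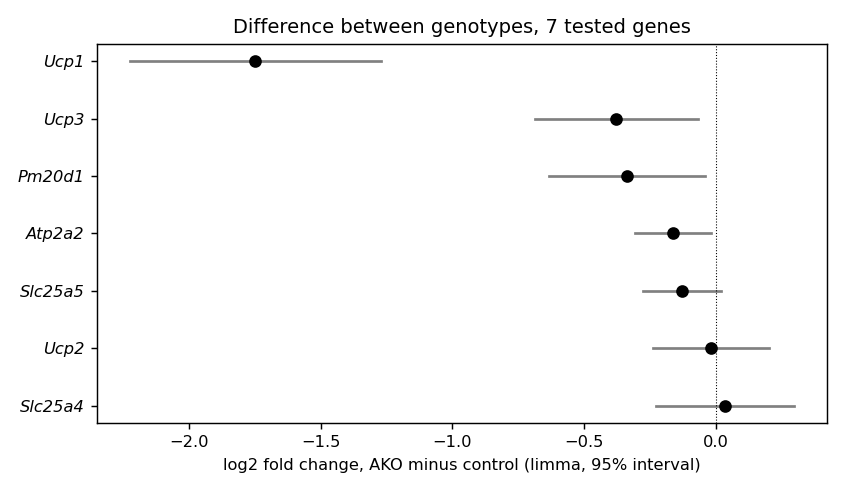
Log2 fold change of AKO against control iWAT (x axis) for the 7 tested genes, with the limma estimate as a point and its 95% interval as a line. The interval of Ucp1, -2.22 to -1.27, lies apart from those of the other 6 genes, of which Slc25a5, Ucp2 and Slc25a4 have intervals that cover 0.

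Ucp1, the gene for the thermogenic uncoupling protein, was measured at 18058, 25393 and 16827 normalized counts in controls and 5401, 4836 and 7801 in AKO samples. The groups were fully separate, and the highest AKO value was under the lowest control value by more than the spread among the AKO samples. The means were 20093 ± 4631 and 6013 ± 1575 (SD, n = 3 each), a ratio of 3.34. The log2 fold change was -1.75 (SE 0.21, 95% interval -2.22 to -1.27, limma, unadjusted p = 3.0e-05, adjusted p = 0.0703). With DESeq2 the adjusted p was 2.0e-06, and with edgeR it was 0.0772. Counted without regard to length, Ucp1 had rank 80 of 16538 genes in the control mean and rank 294 in the AKO mean, so it was still an abundant transcript in AKO iWAT. Because whole tissue was measured, fewer beige adipocytes and less Ucp1 RNA per cell cannot be told apart.

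Among 18 brown and beige adipocyte genes other than the members, 17 were tested and 16 had a log2 fold change below 0, with a median of -0.72. The groups did not overlap for 11 that were lower in AKO (8.31% of all tested genes) and 1 that was higher (6.14%), and the other tested genes of the list overlapped. DESeq2 called 10 of them lower in AKO (0.757% of all genes in this direction) and limma called 1 (0.00722%), Elovl3, the gene for a fatty acid elongase of brown fat. This limma call was lost when control 1, control 3, AKO 1, AKO 2 or AKO 3 was left out. The sum of the 18 genes was 18126 to 24599 normalized counts in controls and 11476 to 12604 in AKO samples, against the 10 white adipocyte genes, of which 8 were below 0 with a median of -0.09. The part of a changed share of beige cells in the Ucp1 difference was not tested.

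Ucp2 encodes an uncoupling protein homolog found in many tissues and in immune cells. Its values were 3332, 3473 and 3887 normalized counts in controls and 3121, 3587 and 3879 in AKO samples. The groups covered almost the same range, with means of 3564 ± 289 and 3529 ± 382 (SD, n = 3). The log2 fold change was -0.02 (SE 0.10, limma adjusted p = 0.980), and its 95% interval ran from -0.24 to 0.20, which does not reach the interval of Ucp1. In the annotation, 4.36% of the exon bases of Ucp2 are shared with Dnajb13 on the opposite strand, and whether counting used strand was not stated. The 10 macrophage genes, of interest beside Ucp2 because these cells express it, all had log2 fold changes above 0 (median 0.37). Of these, 5 had an unadjusted limma p under 0.05 (4.41% of all tested genes in this direction) and 1 had groups without overlap (6.14%), with sums of 10152 to 14429 in controls and 12627 to 17375 in AKO samples. Their part in the Ucp2 level was not tested.

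Ucp3, best known from skeletal muscle and brown fat, was measured at 1740.1, 2338 and 1589 normalized counts in controls and 1420.3, 1508 and 1379 in AKO samples. Control 2 was the highest sample for Ucp3, as it was for Ucp1, and the groups did not overlap. The means were 1889 ± 396 and 1436 ± 66.2 (SD, n = 3), with a log2 fold change of -0.38 (SE 0.13, 95% interval -0.68 to -0.07, limma adjusted p = 0.498, DESeq2 adjusted p = 0.152). Without control 2 the log2 fold change was -0.21, so this sample carried a large share of it. Among the AKO samples its highest and its lowest values were in AKO 2 and AKO 3, the samples with the most muscle RNA. The part of muscle RNA in the Ucp3 level was not tested.

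The paralogs are separate genes on 2 chromosomes of GRCm38, as read from GENCODE M21. Ucp1 lies on chr8:83290352-83298452 (+ strand) with 6 exon blocks. Ucp3 (chr7:100472990-100486432) and Ucp2 (chr7:100493337-100502020) are neighbours, both on the + strand. Their coding sequences differ enough for reads to be assigned: Ucp1 shared 60.9% of aligned bases with Ucp2 and 62.6% with Ucp3, and Ucp2 shared 73.8% with Ucp3. The 250 bases upstream of the RefSeq start (GRCm38.p6, + strand, 5′ to 3′) are shown for Ucp1, the gene with the large difference, at chr8:83290098-83290347 and for Ucp3, the paralog with the smaller one, at chr7:100472741-100472990. Capitals mark 3 short motifs searched on both strands: AGGTCA, a nuclear receptor core motif, TGACG, the core of the cAMP response element, and TATATA, a form of the TATA box.
Ucp1: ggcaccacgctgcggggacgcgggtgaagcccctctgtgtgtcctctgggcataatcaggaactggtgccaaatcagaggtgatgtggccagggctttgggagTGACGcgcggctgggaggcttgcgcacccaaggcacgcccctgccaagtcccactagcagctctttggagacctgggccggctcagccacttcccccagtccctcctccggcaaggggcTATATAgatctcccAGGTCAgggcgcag
Ucp3: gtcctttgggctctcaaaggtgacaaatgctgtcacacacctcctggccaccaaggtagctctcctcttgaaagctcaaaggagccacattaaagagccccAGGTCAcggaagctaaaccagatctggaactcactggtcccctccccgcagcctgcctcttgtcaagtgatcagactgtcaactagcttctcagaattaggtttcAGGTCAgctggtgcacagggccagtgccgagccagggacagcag
The Ucp1 window holds TGACG starting 147 bases, TATATA 28 bases and AGGTCA 14 bases before the start, while the Ucp3 window holds AGGTCA starting 149 and 44 bases before it. Among the 6 members with a RefSeq window, Ryr2 also holds AGGTCA (117 bases before the start), Ucp2 holds TGACG on the opposite strand (62 bases before it), and Slc25a4 and Slc25a5 hold none of the 3. Of 32851 windows of the same length in the mouse genome, 14.0% hold AGGTCA, 17.8% hold TGACG and 5.25% hold TATATA. These matches describe letters only, and no binding was measured.

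Within each sample, Ucp1 can be set against its paralogs without regard to the scaling between samples. The log2 ratio of Ucp1 to Ucp3 was 3.37, 3.44 and 3.40 in controls (SD 0.033) and 1.93, 1.68 and 2.50 in AKO samples (SD 0.42). In controls Ucp1 and Ucp3 thus kept nearly 1 ratio while each varied by sample, whereas in AKO iWAT the sample with the most Ucp1 (AKO 3) had the least Ucp3. The difference in this ratio was -1.37, and for Ucp1 against Ucp2 it was -1.73. The ratio was lower in every AKO sample for all 7 other members, by -1.78 for Slc25a4, -1.62 for Slc25a5, -1.59 for Atp2a2, -1.41 for Pm20d1 and -1.30 for Ryr2. Each gave p = 0.1 in a 2-sided exact permutation test (adjusted p = 0.1 over 7 ratios), the smallest p that 3 against 3 samples allow, so that no ratio could pass 0.05 by this test. All 7 ratios hold Ucp1 and so carry its own difference, and they are not 7 separate results. The Ryr2 ratio rests on 3 to 12 reads a sample: it was -0.81 without control 2, and with a pseudocount of 0.1 it was -1.23 (exact permutation p = 0.2), with the separation of the groups lost.

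**Figure D3:**
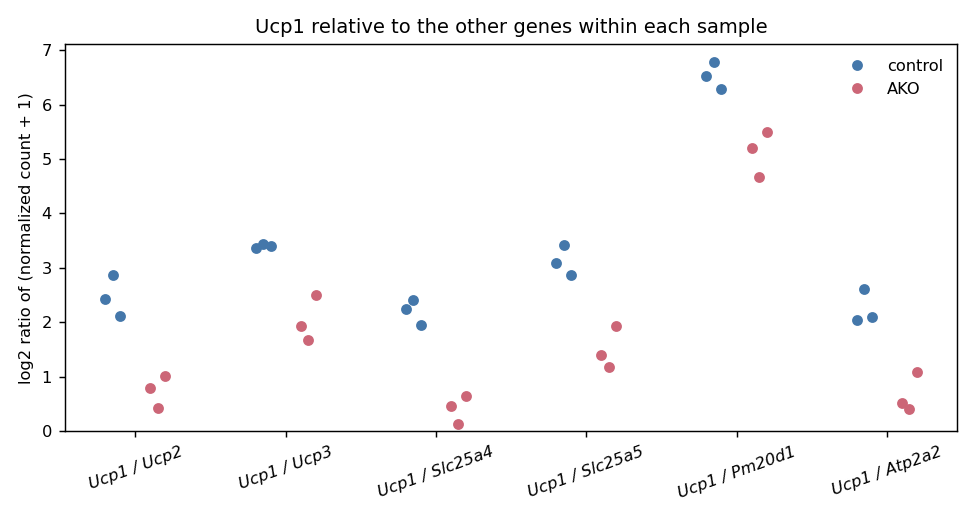
The log2 ratio of Ucp1 to 6 other genes within each sample (y axis, from normalized counts + 1) in 3 control and 3 AKO samples, each point 1 sample. Every AKO point lies below every control point of the same ratio, and the 3 control points for Ucp1 against Ucp3 lie between 3.37 and 3.44.

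Compared per kilobase of the principal transcript, which allows levels to be set side by side between genes, Ucp1 was the highest of the 8 genes in both genotypes, at 12282 ± 2831 normalized counts per kb in controls and 3675 ± 963 in AKO samples (SD, n = 3). In controls it was followed by Slc25a4 (2239), Slc25a5 (1828), Atp2a2 (923), Ucp2 (894), Ucp3 (772), Pm20d1 (30.8) and Ryr2 (0.547). The ranges of Atp2a2 and Ucp2 overlapped in both groups, so this pair is not ordered by the data, and those of Ucp2 and Ucp3 overlapped in controls and were separate in AKO samples. In AKO samples the means were 2298 for Slc25a4, 1673 for Slc25a5, 885 for Ucp2, 825 for Atp2a2, 587 for Ucp3, 24.5 for Pm20d1 and 0.401 for Ryr2. The mean of Ucp1 was 5.49 times that of Slc25a4 in controls and 1.60 times in AKO iWAT. With all annotated exons as the length, Ucp2 came to 510 per kb in controls and fell below Ucp3 (603), so the order of these paralogs depends on the transcript taken.

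Ucp1 made up 87.7%, 89.5% and 86.4% of the reads per kb of the 3 uncoupling protein genes in controls and 70.8%, 66.1% and 75.6% in AKO samples. Its share was lower in every AKO sample, with means of 87.9% ± 1.56 and 70.8% ± 4.77 (SD, n = 3) and a difference of -17.0 percentage points (exact permutation p = 0.1). The size of this difference depends on the length taken, at -24.0 points without division by length and -12.8 points per kb of all exons. The sum of the 3 genes per kb was 13947 ± 2964 in controls and 5147 ± 1007 in AKO samples (exact permutation p = 0.1), and the mean of neither Ucp2 nor Ucp3 was higher in AKO iWAT.

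**Figure D4:**
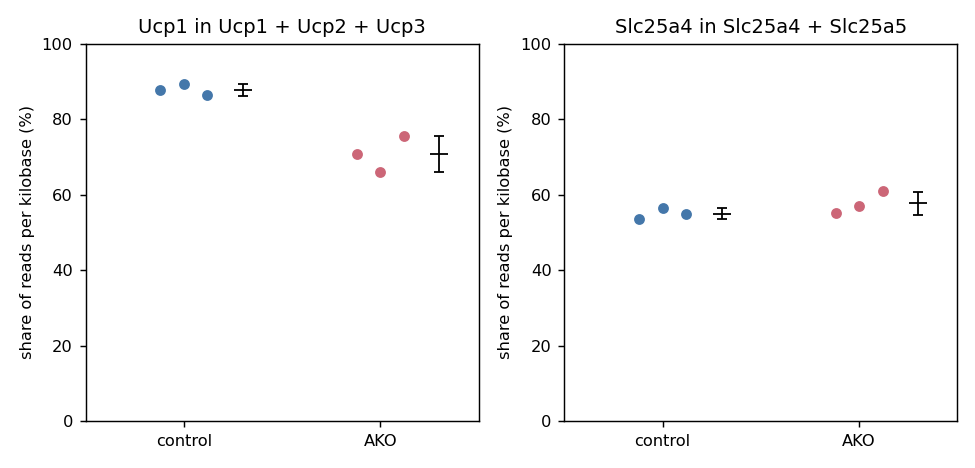
Share of reads per kb (y axis, percent, from 0 to 100) taken by Ucp1 among Ucp1, Ucp2 and Ucp3, and by Slc25a4 among both ADP/ATP carriers, in 3 control and 3 AKO samples, each point 1 sample, with the mean ± SD. The Ucp1 share is between 86.4% and 89.5% in controls and between 66.1% and 75.6% in AKO samples, while the Slc25a4 shares overlap.

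The ADP/ATP carriers exchange ADP for ATP across the inner mitochondrial membrane, with SLC25A4 (ANT1) as the main isoform of muscle and SLC25A5 (ANT2) as that of many other tissues. Slc25a4 was measured at 3790.3, 4794 and 4347 normalized counts in controls and 3898, 4388 and 4982 in AKO samples. The groups overlapped across nearly their whole range, with means of 4310.4 ± 503 and 4423 ± 543 (SD, n = 3) and a log2 fold change of 0.04 (SE 0.11, 95% interval -0.23 to 0.30, limma adjusted p = 0.957). Control 1, with the least muscle RNA, was the lowest sample for Slc25a4, and AKO 3, with the most, was the highest. The part of muscle RNA in its level was not tested. Without control 1, or without AKO 3, the fold change was below 0 (-0.053 without AKO 3).

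Slc25a5 was measured at 2123, 2378 and 2300.4 normalized counts in controls and 2049, 2131 and 2042 in AKO samples. The lowest control sample fell within the AKO range, and the means were 2267 ± 130.3 and 2074 ± 49.6 (SD, n = 3). The log2 fold change was -0.13 (SE 0.06, 95% interval -0.27 to 0.02, limma adjusted p = 0.599). Transcripts of 7 other genes, 6 of them pseudogenes, resemble the Slc25a5 transcript (at least 90% identity over at least 20% of its length), and reads shared with them could have been lost or misplaced, so this level is uncertain. Slc25a4 took 53.5%, 56.5% and 54.9% of the carrier reads per kb in controls and 55.1%, 57.0% and 61.1% in AKO samples, a difference of 2.77 percentage points (exact permutation p = 0.2) that was 1.08 without AKO 3 and 4.11 without AKO 1. Their sum per kb was 4068 ± 365 in controls and 3970.4 ± 279.8 in AKO samples (exact permutation p = 0.7). Taken with the uncoupling proteins and 4 further carriers of the family, 8 of 9 genes were tested, 6 were below 0 (48.1% of all tested genes), and DESeq2 called 1, Ucp1 (0.998% of all genes).

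PM20D1 is a secreted enzyme that joins fatty acids and amino acids to N-acyl amino acids and can also split them. Pm20d1 (chr1:131797381-131821473) was measured at 195, 230.1 and 213 normalized counts in controls and 145, 189 and 173 in AKO samples. The highest AKO sample was just below the lowest control sample, so the groups were separate by a narrow margin. The means were 213 ± 17.7 and 169 ± 22.4 (SD, n = 3), with a log2 fold change of -0.34 (SE 0.13, 95% interval -0.63 to -0.04, limma adjusted p = 0.515). Among 6 genes of N-acyl amino acid and acylase function, 5 were below 0 with a median of -0.14, and neither limma nor DESeq2 called any. The highest of them were Aspa, for an enzyme that splits N-acetylaspartate, at 1165 in controls and 1023 in AKO samples (log2 fold change -0.19), and Acy3, for another aminoacylase, at 437 and 370.2 (-0.24).

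Calcium cycling was represented by a pump and a release channel at opposite ends of expression. Atp2a2, the gene for SERCA2 (chr5:122453513-122502225, - strand), was measured at 4371, 4147 and 3908 normalized counts in controls and 3782, 3652 and 3673 in AKO samples. The AKO samples lay close together under all controls, with means of 4142 ± 232 and 3702 ± 69.4 (SD, n = 3). The log2 fold change of -0.16 (SE 0.06, 95% interval -0.30 to -0.02) had an adjusted p of 0.522 with limma. Gene counts do not separate SERCA2b, the isoform of calcium cycling in beige fat, from the cardiac SERCA2a, and 1.36% of the exon bases of Atp2a2 are shared with the gene model Gm43361.

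Ryr2, the gene for the ryanodine receptor of heart (chr13:11553102-12106945, - strand, 107 exon blocks), had 12, 5 and 10 reads in controls and 9, 3 and 9 in AKO samples. The groups overlapped, and with means of 9.19 ± 3.44 and 6.75 ± 3.31 normalized counts (SD, n = 3) it was below the minimum for limma. DESeq2 gave a log2 fold change of -0.45 with an SE of 0.80, so a difference of a few fold was not detectable at this depth. Markers of slow and cardiac muscle, which express Atp2a2 and Ryr2, were low, with 9 of 10 genes listed and summed levels of 32.1 to 67.7 in controls and 41.3 to 51.7 in AKO samples.

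Other pumps and channels of the pathway were read from lists of related genes. Of 13 SERCA pumps and regulators, 9 were listed and 8 tested, the median log2 fold change was 0.00, and neither limma nor DESeq2 called any. The highest were Calr, the calcium-binding chaperone calreticulin, at 10183 in controls and 9651 in AKO samples, and Atp2a1, the SERCA1 pump of fast muscle. Atp2a1 was measured at 25.1, 5438 and 2457 normalized counts in controls and 4021, 15343 and 23071 in AKO samples. Its log2 fold change was 4.00 with limma (SE 1.79, adjusted p = 0.560) and 2.42 with DESeq2, and control 1 was by far its lowest sample. The order of Atp2a1 over the 6 samples was that of the skeletal muscle genes. Of 20 genes for calcium release channels and their partners, 18 were tested with a median of 0.09 and none was called by limma or DESeq2. Fkbp1a, for a channel-binding protein and among the highest of them, had a log2 fold change of -0.02. Ryr1 and Itpr1 were picked out after their values were seen: Ryr1, the ryanodine receptor of skeletal muscle, took the order of the muscle genes, from 28.1 in control 1 to 2247 in AKO 3, and Itpr1, an inositol trisphosphate receptor of many cell types, averaged 1048 in controls and 909 in AKO samples without overlap (limma adjusted p = 0.477). Control 1 and AKO 3 were the extremes of muscle RNA as well, and its part in the levels of Atp2a1 and Ryr1 was not tested.

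**Figure D5:**
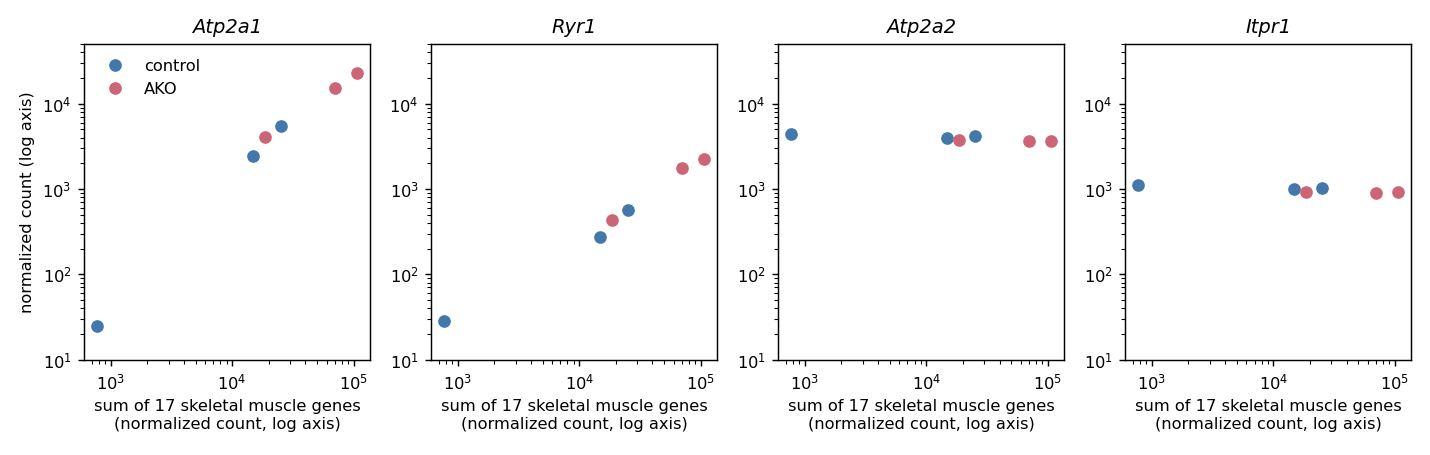
Normalized counts of the calcium pumps Atp2a1 and Atp2a2 and the calcium channels Ryr1 and Itpr1 (y axis, log scale) against the summed normalized counts of 17 skeletal muscle genes (x axis, log scale) in 3 control and 3 AKO samples, each point 1 sample. Atp2a1 and Ryr1 follow the order of the muscle sum, from 777 in control 1 to 106766 in AKO 3. Atp2a2 lies between 3652 in AKO 2 and 4371 in control 1, and its relation to the muscle sum was not tested.

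The 13 genes for store-operated entry and calcium transport at the plasma membrane (11 tested) had a median of -0.02 with no call by limma or DESeq2. Their highest members were Atp2b4, a plasma membrane calcium pump (log2 fold change -0.04), and Saraf, a regulator of store-operated entry (-0.06). Of 9 mitochondrial calcium genes, Letm1, for an ion exchanger of the inner mitochondrial membrane, was called lower by DESeq2 (adjusted p = 0.00725, against 0.757% of all genes called in this direction) and not by limma (adjusted p = 0.298). Letm1 was measured at 3276, 3940.2 and 3157 normalized counts in controls and 2641, 2598 and 2617 in AKO samples, a log2 fold change of -0.39 (SE 0.09) without overlap of the groups. Its AKO samples differed by less than the counting error of their mean, so their SD understates the error. Vdac1, the outer membrane channel and the highest of this list, had a log2 fold change of -0.03.

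Genes of general mitochondrial content were set beside the members because the uncoupling proteins and ADP/ATP carriers lie in mitochondria. Of 14 such genes, all tested, 13 were below 0 (48.1% of all tested genes), 8 had an unadjusted limma p under 0.05 (4.69%) and 6 did not overlap (8.31%), all lower in AKO, with a median of -0.22 and no call by limma. Cs, the citrate synthase of the Krebs cycle, had a log2 fold change of -0.26, and Atp5a1, a subunit of ATP synthase, one of -0.23. Over the 14 genes the values ran from -0.33 to 0.10. The values of Ucp3 and Letm1 were -0.38 and -0.39, and that of Ucp1 was -1.75. The part of mitochondrial content in these differences was not tested.

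Genes whose pattern over the 6 samples was nearest to that of each member were found by the root mean square difference of centred log2 values among 10303 genes with a mean of at least 100. For Ucp1 they were Elovl3 (0.12), Gyk (0.27), for glycerol kinase, and Dio2 (0.29), for the deiodinase that activates thyroid hormone. Elovl3 was picked for its likeness to Ucp1 over these same samples, so the likeness is no further result. For Ucp3 the nearest were Xrcc6, Rdh13 and Tufm, for Pm20d1 Tstd3, Ppp1r13l and 1700021F05Rik, and for Atp2a2 Ankrd27, Pnpla8 and Angel2. For Ucp2 they were Banf1, Gmppb and Ccdc85a, for Slc25a4 Clta, Mettl22 and Wdr83os, for Slc25a5 Sgta, Tcta and Adh5, and for Ryr2, where counting error is large, Lrig3, Cyp2f2 and D430019H16Rik. With 6 samples, these names are a description of likeness alone.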

How the data were processed

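iWAT RNA from 3 control and 3 AKO samples, each pooled from 2 mice, was sequenced by the authors. The authors aligned reads to GRCm38 with STAR, counted them per gene on GENCODE M25 and tested genotype with DESeq2. Neither the filter behind the 16538 genes nor the use of strand was given in the sources used here. The deposited unit is a signal per gene and sample, the read count divided by a size factor, with no division by length. Columns of log2 fold change and of p-values and adjusted p-values from the authors' own comparison were not used, and 0 columns of per-sample values lacked a sample.

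limma (3.58.1, R 4.3.3) with a variance trend was fitted to log2(signal + 1) for 13855 genes with a mean of at least 10, at an adjusted p (Benjamini-Hochberg) of 0.05. Division by the value of 1 read, found from the steps between values, gave whole reads (within 0.01) for 100% of values, and these were tested with edgeR (4.0.16, 3 genes called), DESeq2 (1.42.0, 149 genes called) and limma-voom. Any pair of samples of a group differed by more than counting noise (chi-square over its degrees of freedom, 8.89 to 18.2). Ratios and shares were compared by a 2-sided exact permutation test. Intervals are 95% intervals from limma. p-values cover the spread between pooled samples.

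Levels between genes were set per kb of the principal transcript of GENCODE M21, and upstream sequences came from RefSeq (GRCm38.p6), which held 6 of the 8 members. Coding sequences were aligned pairwise with Biopython 1.88. The fits were tested on simulated data.

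The members and lists were chosen with earlier results of these data known. The rule for named genes took the 8 members, list genes called by limma or DESeq2, the 2 highest genes of each pathway list and the 3 nearest genes of each member. A gene that this rule names is not reported here. Calls in the marker lists are given as counts. Mcub was listed under its older symbol. Alternatives changed the pseudocount, filter, scaling, test and samples.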

Additional observations from a re-analysis of the deposited data

How the results depend on the processing

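Ucp1 was lower in AKO under all 17 alternatives to its fold change. With limma on genes that had at least 10 reads in every sample its log2 fold change was -1.75 (adjusted p = 0.0250), and with DESeq2 it was -1.74, which made 1 member called under each of these alternatives against 0 otherwise. Leaving out each sample in turn gave -1.95 to -1.57 for Ucp1, with 0 members called throughout. Ucp3, Pm20d1, Atp2a2 and Slc25a5 also kept a negative sign under all alternatives. Ucp2 had log2 fold changes from -0.088 to 0.069 when each sample was left out, above 0 without control 3 (0.047) and without AKO 1, and Slc25a4 had -0.053 to 0.12, below 0 without control 1 and without AKO 3. Slc25a4 was also below 0 (-0.051) without control 1 and AKO 2 together, the pair high in lymphocyte genes, an alternative chosen after the data were seen. The cause was not tested.

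The number of genes called over the whole table, 2 with limma, was 6 with the filter of 10 reads (4 lower, 2 higher), 5 with edgeR and RLE factors, 149 with DESeq2 (113 lower, 36 higher), 1 with limma-voom, 0 without control 1 and AKO 2, and 0 to 3 when each sample was left out in turn. The ratios of Ucp1 to the other members and the shares kept their direction under all alternatives run for them. Correlations of the deviations of same-numbered control and AKO samples were 0.14, -0.35 and 0.24, against -0.50 to 0.34 for other numbers. These values cannot tell whether same-numbered samples were handled together. The SE of Ucp3 was 0.093 with the number as a block and 0.134 without it, and that of Ucp1 was 0.217 and 0.206. With the replicate number as a block, the log2 fold change of Ucp1 was -1.75 (limma adjusted p = 0.0608), 2 genes were called (0 lower and 2 higher, against 1 and 1 without the block, so that the call for Elovl3 was lost), and no call for a member changed. Depth limits Ryr2, with 3 to 12 reads per sample.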
